A study of Mus musculus with 2 samples.

Results

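The genes described here are 8 regulators of mitochondrial biogenesis: Pprc1, Ppargc1a, Ppargc1b, Nrf1, Yy1, Esrra, Ppara and Nfe2l2. They were chosen by name from 21938 annotated protein-coding mouse genes, with earlier results of these data known. The binding data were 1 chromatin immunoprecipitation sequencing (ChIP-seq) library for GABPα, made with the antibody sc-22810X from CD4 T cells. The mice were labelled wild-type and were on the C57BL/6 background. The paper gives the name wild-type to its Gabpa f/f littermate controls, which carry floxed Gabpa alleles. Its ChIP-seq methods do not say whether the mice used there carried them. The cells had been isolated on magnetic beads, and 1 input DNA library of the same cells served as the control for peak calling. The animals' age was not given in the sources used here. The deposited result was a list of 6782 peaks on the mm10 assembly, each with a position and a width but with no height, enrichment or q-value. The identity of the cells could not be checked against marker genes in a list of this kind. Each gene was given the peaks lying within 1000 bp of any of its GENCODE M21 transcript starts or, where there were none, the nearest peak. With 1 library and no replicate, the comparisons below are counts and positions without a statistical test. The 95% Wilson intervals cover counting error only.

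GABPα is the DNA-binding subunit of GA-binding protein, an ETS-family transcription factor whose partner subunits, the GABPβ proteins, activate transcription. It is also called nuclear respiratory factor 2, because its sites were found in promoters of nuclear genes for the respiratory chain. Transcription of such genes is controlled by a small circuit. The DNA-binding factors in it include NRF1, YY1, ERRα and the PPARs, and the coactivators of the PGC-1 family, which do not bind DNA themselves, dock on those factors and raise their activity. NFE2L2 is a separate factor of the antioxidant response that is often called NRF2 as well, and it is not related to GABP.

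GABPα peaks were listed near the starts of 2 of the 8 regulators (25%, interval 7.15 to 59.1%), Pprc1 and Yy1. Across all protein-coding genes the share was 3880 of 21938, or 17.7% (interval 17.2 to 18.2%), which lies within the interval of the regulators. Pprc1 had 2 such peaks and Yy1 had 1. The other 6 genes, Ppargc1a, Ppargc1b, Nrf1, Esrra, Ppara and Nfe2l2, had no peak within 10 kb of a start, and Nrf1 and Ppargc1b had none within 100 kb. The 3459 peaks within 1000 bp of a coding gene's transcript start had a median width of 210 bp (quartiles 159 and 267 bp). All 3 peaks at Pprc1 and Yy1 were narrower than this median, at 152, 167 and 104 bp. None of the 3 held the GABP motif CCGGAAG, against 1979 of those 3459 peaks (57.2%). Motifs were counted as exact matches on both strands. CCGGAAG contains CGGAAG, which in turn contains GGAA, the core shared by ETS factors, so 1 site may count under all 3.

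**Figure D1:**
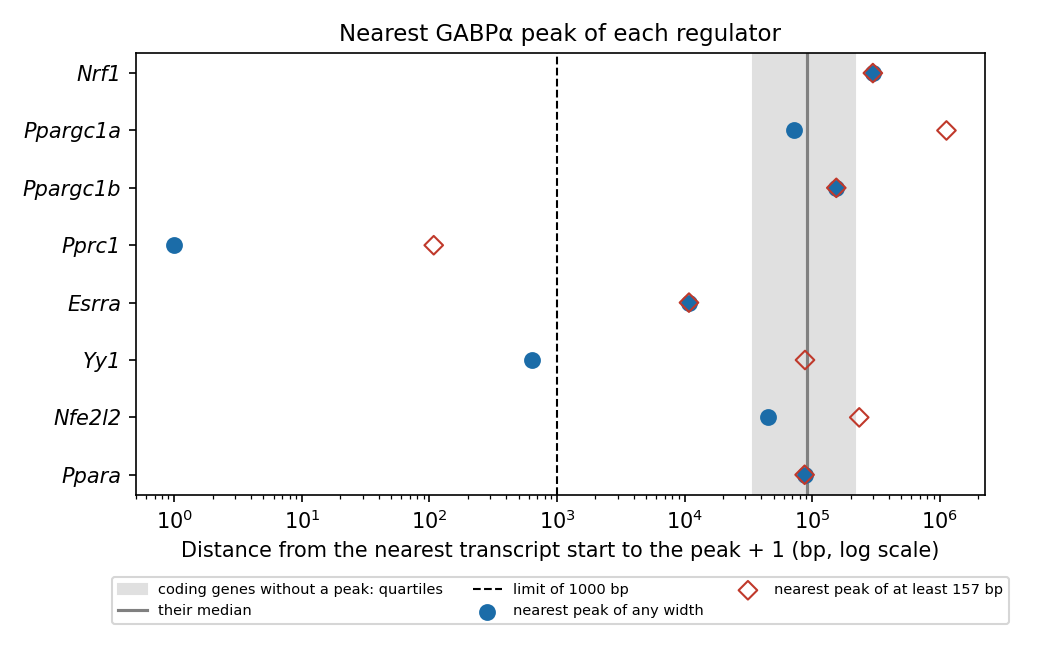
Distance from each regulator's nearest transcript start to the nearest GABPα peak, in bp plus 1 on a log axis. Filled circles are peaks of any width, open diamonds are peaks at or above the median width of the list (157 bp), the dashed line is the 1000 bp limit, and the grey band with its line shows the quartiles and median of coding genes without a peak. Pprc1 and Yy1 sit left of the limit, and Yy1 moves to 87828 bp when narrower peaks are left out.

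Among the coactivators, Pprc1, which encodes the PGC-1-related coactivator PRC, was the one with a peak over a transcript start. Pprc1 (ENSMUSG00000055491.14) lies on the plus strand at chr19:46044886-46072915 and has 11 annotated transcripts. The first peak, chr19:46056390-46056541, covered the 5′-most start of its protein-coding transcripts at position 46056539. At 152 bp it was wider than 21.8% of the peaks near coding-gene starts. It held no CGGAAG and 4 GGAA cores, all on the minus strand, starting 133, 93, 19 and 14 bases before the start. Its GC content was 50%, against a median of 64.3% for peaks near coding-gene starts, and every one of its 117 36-base words, the length of the reads, occurred once in the genome. The sequence of this peak is shown because it is the best placed peak of the 8 genes and lacks the usual GABP motif. It is given from its first base to the base before the start, with the cores in capitals as they read on the plus strand (TTCC).
Pprc1 start peak, chr19:46056390-46056538, plus strand: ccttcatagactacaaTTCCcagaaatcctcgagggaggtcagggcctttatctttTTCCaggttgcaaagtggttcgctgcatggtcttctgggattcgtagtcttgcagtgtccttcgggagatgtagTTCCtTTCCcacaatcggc

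A different repeated element was seen in that sequence. The letters ACTACA and TCCC with 2 unspecified bases between them, which form part of the recognition sequence of the zinc-finger factor ZNF143, occurred once on each strand. The plus-strand copy spanned 140 to 129 bases before the start and took in the first GGAA core. The minus-strand copy spanned 30 to 19 bases before the start and overlapped the third core by 1 base. This 12-base motif was chosen after the sequence had been read, so its presence at Pprc1 is a description. Of the 3459 peaks near coding-gene starts, 172 (4.97%, interval 4.3 to 5.75%) held it at least once and 16 held 2 or more copies. The share was 54 of 808 (6.68%, interval 5.16 to 8.62%) in those without CGGAAG, 9 of which held 2 or more copies as Pprc1 did. In those with CGGAAG it was 118 of 2651 (4.45%, interval 3.73 to 5.30%), and these intervals overlap. Among the 3323 peaks away from coding-gene starts the count was 17 (0.512%). In windows from 250 bases before to 50 bases after the start, 579 of 21938 coding genes (2.64%) held the motif, and Pprc1 was the only regulator among them. Outside these windows, the peak nearest to Ppara held 1 copy. Of the peaks at the related genes described further on, those of Sirt1 and Mtor held 1 copy and that of Polrmt held 2, as at Pprc1. Of these 579 genes 203 (35.1%, interval 31.3 to 39.0%) had a GABPα peak, compared with 17.2% of the genes without the motif. Some other motifs in the same windows were also commoner at genes with a peak than at genes without. The YY1 motif AANATGGCG was at 6.01% and 2.27%, and the NRF1 motif GCGCANGCG at 14.6% and 7.13%. The GC box GGGCGG was at 60.8% and 40.2%. The ERR motif TNAAGGTCA went the other way, at 0.928% and 1.22%. Such a difference is thus not particular to the 12-base motif, and a match to it does not show that ZNF143 was bound.

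The second Pprc1 peak, chr19:46044993-46045159 (167 bp), ended 11380 bp upstream of the coding start, inside the first exon of a non-coding Pprc1 transcript. It was 107 bp downstream of that transcript's start. It was nearer, at 51 bp, to a start of Ldb1, a neighbouring gene on the opposite strand that encodes a LIM-domain-binding cofactor, and it overlapped an exon of Ldb1 too. The peak list does not assign a peak to a gene, so a Pprc1 peak and an Ldb1 peak cannot be told apart here. Its GC content was 71.9%, and its 3 GGAA cores fell within 20 bases. This stretch is shown, with the cores in capitals, because it holds all the ETS cores of the peak.
Pprc1 first-exon peak, chr19:46045036-46045065, plus strand: cagacaGGAAGGAAgccaggcaGGAAggcg

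**Figure D2:**
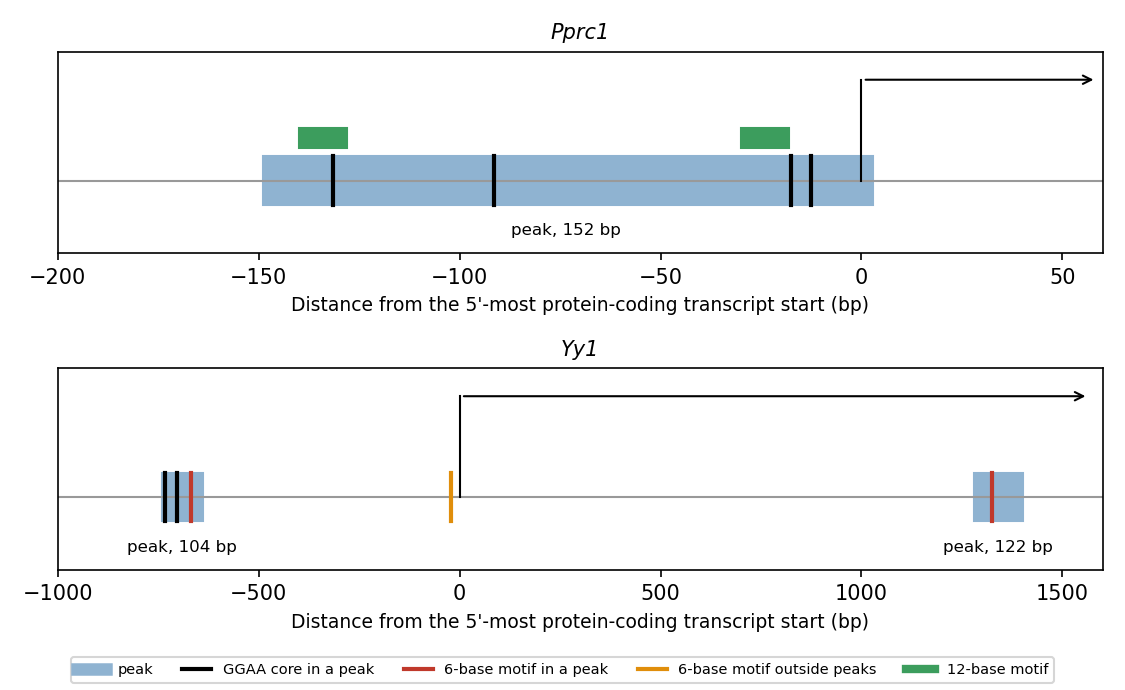
Peaks and motifs at Pprc1 (top) and Yy1 (bottom), in bp from the 5′-most protein-coding transcript start, which the arrow marks. The Pprc1 panel covers the surroundings of that start only, so the 167 bp Pprc1 peak far upstream is not drawn. Blue boxes are peaks, black and red lines are GGAA and CGGAAG (6-base motif) matches in a peak, the orange line is a CGGAAG outside the peaks, and green boxes are the 12-base motif. The Pprc1 peak of 152 bp reaches the start, while the Yy1 peaks of 104 and 122 bp leave the start and its CGGAAG uncovered.

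Yy1 encodes YY1, a zinc-finger factor that binds promoters of respiratory genes and also recruits PGC-1α. Yy1 (ENSMUSG00000021264.12) lies on the plus strand at chr12:108792973-108820148 with 2 annotated transcripts. Its peak within 1000 bp, chr12:108792231-108792334, lay 639 bp upstream of the start. It was 104 bp wide, the smallest width in the list, which 696 of 6782 peaks shared (10.3%) but only 71 of the 3459 peaks near coding-gene starts (2.05%). Those 71 held CCGGAAG in 20 cases (28.2%), fewer than the 57.2% among all peaks near coding-gene starts. The Yy1 peak lay in an exon of Gm34220, an unverified transcript model on the minus strand, whose start was nearer at 409 bp. It held 1 CGGAAG, on the minus strand and centred 669 bases before the start, and 3 GGAA cores in all. A second peak, chr12:108794252-108794373 (122 bp), lay in the Yy1 intron 1279 bp downstream of the start, outside the 1000 bp limit, and also held 1 CGGAAG. All 36-base words of both peaks were unique in the genome. The start itself held another CGGAAG, centred 20 bases upstream, that no peak covered. The 3 sites are shown with the 6-base motif in capitals, which reads CTTCCG where the site is on the minus strand.
Yy1 upstream peak, chr12:108792231-108792334, plus strand: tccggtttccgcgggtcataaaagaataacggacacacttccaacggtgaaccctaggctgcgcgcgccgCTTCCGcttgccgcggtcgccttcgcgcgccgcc
Yy1 intron peak, chr12:108794252-108794373, plus strand: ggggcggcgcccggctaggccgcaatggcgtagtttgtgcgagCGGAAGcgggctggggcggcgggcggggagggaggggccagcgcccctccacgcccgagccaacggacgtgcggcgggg
Yy1 start site without a peak, chr12:108792938-108792967, plus strand: ccgagagccccgCGGAAGtctcgcgaggcc

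**Figure D3:**
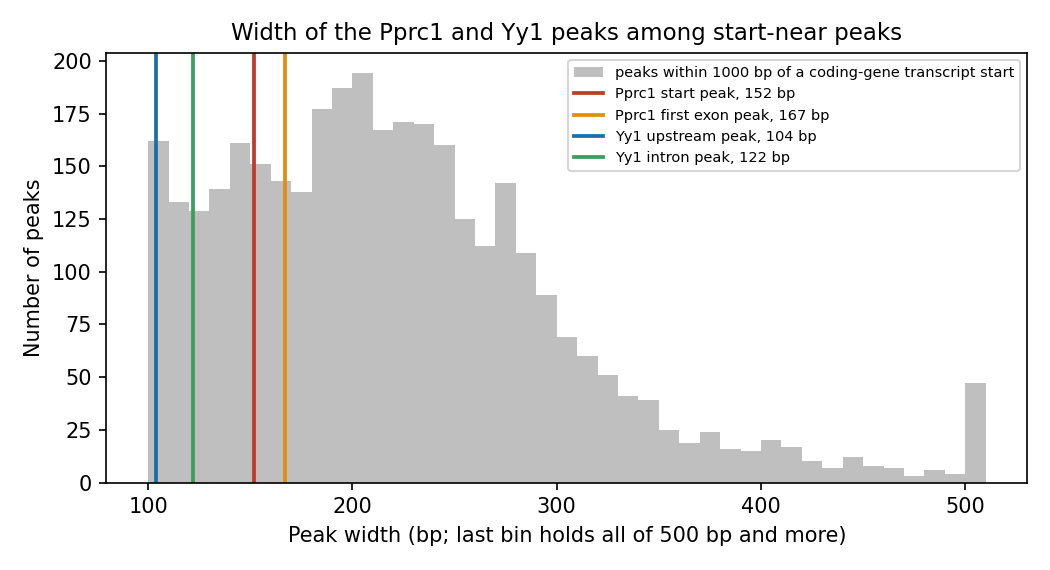
Widths of the 3459 peaks within 1000 bp of a coding gene's transcript start, as a histogram in 10 bp bins, with vertical lines at the peaks of Pprc1 (152 and 167 bp) and Yy1 (104 and 122 bp). All 4 lines fall left of the median of 210 bp, and the Yy1 upstream peak stands at the smallest width in the list.

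Esrra encodes ERRα, an orphan nuclear receptor that works with the PGC-1 coactivators on respiratory genes. Of the 6 genes without a peak near a start it was the closest to one. Esrra (ENSMUSG00000024955.14, chr19:6910977-6921813, minus strand) had its nearest peak 10816 bp downstream of a start and 742 bp past the end of the gene. Only 7.77% of the 18058 coding genes without a peak had a nearer one, their median distance being 91699 bp. That peak, chr19:6909939-6910235 (297 bp), covered the starts of a divergent gene pair, Prdx5, which encodes a peroxiredoxin of mitochondria and peroxisomes, and Trmt112, which encodes a cofactor of methyltransferases. It was wider than 84.9% of the peaks near coding-gene starts and held 3 CCGGAAG and 2 further CGGAAG matches, against none at Pprc1. Of its 36-base words 79.4% were unique. The middle CCGGAAG is shown as the example of the full motif that the peaks of Pprc1 and Yy1 lack.
Prdx5 and Trmt112 peak, chr19:6910070-6910099, minus strand: tcttcgccggaCCGGAAGtggccgacttag

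Ppara encodes PPARα, the lipid-activated receptor that controls fatty acid oxidation. Ppara (ENSMUSG00000022383.13, chr15:85734983-85802819, plus strand) had its nearest peak 87238 bp from a start, at chr15:85859452-85859736. This 285 bp peak ended 9 bp before the start of Gtse1, a gene of the cell-division machinery, and held 1 CCGGAAG, shown here, and 6 GGAA cores. It also held 1 copy of the 12-base motif described at Pprc1. Of the coding genes without a peak, 48.6% had a nearer one, so the distance for Ppara was close to the median.
Gtse1 peak, chr15:85859564-85859593, minus strand: ggaaactcccaCCGGAAGttcccatgactc

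Motif searches around starts took in coding starts only, not the non-coding start beside the second Pprc1 peak. In these searches Nfe2l2 was the 1 regulator with a full CCGGAAG within 1000 bp, and that site had no peak. Nfe2l2 (ENSMUSG00000015839.6, chr2:75675513-75704641, minus strand) carried it centred 186 bases upstream of its coding start. Its nearest peak, chr2:75659698-75659816 (119 bp), was 44673 bp away in an intron of Hnrnpa3, which encodes an RNA-binding protein, and held no GGAA at all. It lay 380 bp from a start of Hnrnpa3 and 454 bp from that of Gm24574, annotated as a miRNA. The nearest peak of at least 157 bp, the median width of the list, was 233730 bp away. All 36-base words within 1000 bp of the Nfe2l2 coding start were unique. The authors trimmed the reads, so some may be shorter, and the placement of trimmed reads in this window was not tested. The site is shown with the motif in capitals.
Nfe2l2 site without a peak, chr2:75704813-75704842, minus strand: gggaactccggCCGGAAGcactcaggtcca

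The share of genes with such a site that also had a peak differed with the window searched. The peak could lie within 1000 bp of any start of the gene and need not cover the site. Of the 2409 coding genes with CCGGAAG between 250 bases before and 50 bases after the 5′-most coding start, 1661 (68.9%, interval 67.1 to 70.8%) had a peak, leaving 748 that, like Nfe2l2, had the motif and no peak. Among the 19529 genes without the motif in that window 2219 (11.4%, interval 10.9 to 11.8%) had one, and Pprc1 and Yy1 belong to this group. Within 1000 bp on either side of the start, CCGGAAG was present in 1 of the 8 regulators and in 24.6% of all coding genes. It was present in 65.4% of those with a peak and 15.9% of those without. Of the 5406 genes with the motif in this wider window 2537 (46.9%, interval 45.6 to 48.3%) had a peak, so that most, like Nfe2l2, had none.

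Nrf1 encodes the DNA-binding factor after which the respiratory factors are named. Nrf1 (ENSMUSG00000058440.14, chr6:30047988-30153458, plus strand) has 20 annotated transcripts that start in several places. Its nearest peak, chr6:29748781-29749005 (225 bp), was 298983 bp upstream in an intron of Smo, and 83.1% of coding genes without a peak had a nearer one. That peak was entirely repeat-masked sequence and held no GGAA, though 89.5% of its 36-base words were unique. Around the start that lies furthest upstream, 99.5% of 36-base words were unique and neither CCGGAAG nor CGGAAG occurred within 1000 bp. The same 2 motifs were absent around the other Nrf1 coding starts examined, at 30076321, 30089889 and 30116115.

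Ppargc1a encodes PGC-1α, the coactivator that gave its family the name. Ppargc1a (ENSMUSG00000029167.13, chr5:51454250-51567726, minus strand) had 1 peak within 1 Mb of a start, chr5:51481444-51481553, which lay in its own intron 72318 bp downstream of the nearest start. The peak was 110 bp wide, repeat-masked over its whole length, and held 1 GGAA. None of its 75 36-base words was unique in the genome, so the position of its reads is uncertain. With peaks under 157 bp set aside, the nearest peak was 1128296 bp away, the greatest such distance of the 8 genes. The 300-base windows at its coding starts were poor in CpG, with observed-to-expected ratios of 0.281 and 0.169, and neither CCGGAAG nor CGGAAG occurred within 1000 bp of either start.

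Ppargc1b encodes PGC-1β, the closest relative of PGC-1α. Ppargc1b (ENSMUSG00000033871.14) lies on chromosome 18 at 61298136 to 61400431 on the minus strand. Its nearest peak was 154538 bp upstream and 308 bp wide, and it covered the start of Csnk1a1, which encodes casein kinase 1α. The peak held 1 CCGGAAG and 5 GGAA cores and was unique in all its 36-base words. Near the Ppargc1b start itself 1 CGGAAG occurred, centred 754 bases downstream, with no peak. Of coding genes without a peak 65.7% had a nearer one. Both PGC-1 coactivators thus lacked a peak within 1000 bp of a start, which Pprc1, the third member of the family, had. Of all coding genes 17.7% had such a peak.

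The base composition of the start windows overlapped between the regulators with a peak and those without. In the 300-base window at the 5′-most coding start, GC content was 50% for Pprc1 and 77.7% for Yy1. It was 78.3% for Ppara, 77.0% for Nrf1, 76.3% for Ppargc1b, 68.0% for Nfe2l2, 66% for Esrra and 48.7% for Ppargc1a. The CpG ratio was 0.747 at Pprc1 and 0.994 at Yy1. It was 0.971, 0.852, 0.827, 0.781, 0.552 and 0.281 at Nrf1, Ppara, Ppargc1b, Esrra, Nfe2l2 and Ppargc1a. Over all coding genes the medians were 55.3% and 0.537, and 6 and 7 of the 8 regulators lay above them. Genes with a peak had a median CpG ratio of 0.81 and genes without a peak 0.429. Among the genes without a peak, Nrf1, Ppara and Ppargc1b thus had starts richer in CpG than the median of the genes with one.

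Sites for some of the regulators' own factors were also looked for in these windows, again as exact letters. The cyclic AMP response element and the GC box were included as further promoter elements. No PPAR site was searched for. The NRF1 motif GCGCANGCG was found at Esrra alone, once, and in 8.45% of coding genes. The YY1 motif AANATGGCG and the ERR motif TNAAGGTCA were found at none of the 8, and at 2.93% and 1.17% of coding genes. The cyclic AMP response element TGACGTCA was found at Yy1 alone and at 2.46% of coding genes. The antioxidant element TGACNNNGC, through which NFE2L2 acts, was found at Ppargc1b and Pprc1 and at 12.5% of coding genes. The GC box GGGCGG was the commonest, present at 43.8% of coding genes and at every regulator but Pprc1 and Ppargc1a, with 5 copies at Ppara and 4 at Ppargc1b.

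Among 61 further genes of the same circuit, in 7 lists, 21 (34.4%, interval 23.7 to 47.0%) had a peak within 1000 bp of a start. For 16 of the 21 the widest such peak covered a transcript start, and for 15 it held CCGGAAG. Of all peaks near coding-gene starts 57.2% held CCGGAAG, a share that takes every peak and not each gene's widest. The share of all these peaks that cover a start was not computed. The lists, like the regulators, were chosen with earlier results of these data known. The largest share was in the mitochondrial DNA list, the proteins that transcribe and copy the mitochondrial genome, where 8 of 8 genes had a peak (interval 67.6 to 100%). These were Tfam, Tfb1m, Tfb2m, Polrmt, Polg, Polg2, Twnk and Ssbp1, with widths from 154 bp at Polrmt to 405 bp at Twnk, the replicative helicase, whose peak also covers the start of Mrpl43. The Tfb2m peak likewise covers the start of Cnst. The peaks of 6 of the 8 held CCGGAAG, beside the 57.2% of all peaks near coding-gene starts. Without this list and the GABP subunits 11 of 50 genes had a peak (22.0%, interval 12.8 to 35.2%), an interval that includes the 17.7% of all coding genes.

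**Figure D4:**
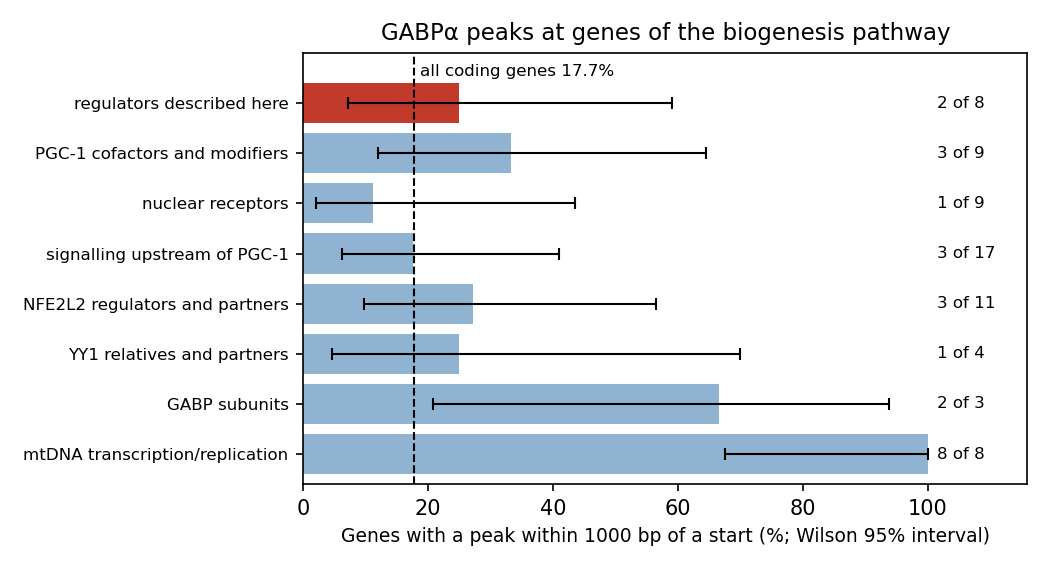
Share of genes with a GABPα peak within 1000 bp of a transcript start, in percent, for the 8 regulators (red) and 7 lists of related genes (blue), with the counts at the right, Wilson 95% intervals as error bars and the share of all coding genes as the dashed line. The mitochondrial DNA list is at 8 of 8, and the interval of the regulators, 2 of 8, includes the dashed line. All lists were chosen with earlier results of these data known.

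In the 5 lists other than the mitochondrial DNA list and the GABP subunits, the interval of each share included the 17.7% of all coding genes. Of the proteins that modify or assist the PGC-1 coactivators, 3 of 9 had a peak (33.3%, interval 12.1 to 64.6%). Fbxw7, a ubiquitin ligase subunit, had the widest of these (288 bp), 680 bp from a start and without CGGAAG. The host cell factor gene Hcfc1 had a peak of 209 bp over a start. The deacetylase gene Sirt1 had one of 212 bp that was 982 bp from its own start but 243 bp from a start of Dnajc12. Of the nuclear receptors related to ERRα and PPARα 1 of 9 had a peak (11.1%, interval 1.99 to 43.5%), Rxrb, an obligate partner of the PPARs, with 309 bp over a start that it shared with the start of Slc39a7. The other receptors, among them Esrrb, Esrrg, Ppard and Pparg, were 20148 bp or more from a peak.

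Of the kinases and factors that act upstream of PGC-1, 3 of 17 had a peak (17.6%, interval 6.19 to 41.0%). The AMPK subunit genes Prkab1 and Prkag1 had peaks of 301 and 277 bp over a start, and Mtor, the nutrient-sensing kinase, had one of 239 bp at a distance of 135 bp. All 3 held CCGGAAG, as did 57.2% of all peaks near coding-gene starts. Of the regulators and partners of NFE2L2, 3 of 11 had a peak (27.3%, interval 9.75 to 56.6%). Among these were Cul3 (177 bp) and Rbx1 (205 bp), subunits of the ubiquitin ligase that degrades NFE2L2, and the related factor Nfe2l1 (229 bp), whose peak held no CGGAAG. Keap1, the adaptor of that ligase, was 87076 bp from a peak. Of the relatives and partners of YY1, 1 of 4 had a peak (25%, interval 4.56 to 69.9%), the chromatin remodeller gene Ino80, with 160 bp at 283 bp from a start. The genes for GABP itself had peaks over a start at Gabpa (370 bp, at a start shared with Atp5j) and Gabpb1 (207 bp), while Gabpb2 was 10252 bp from a peak. The Gabpa peak held the full motif and the Gabpb1 peak did not. Dnajc12, Slc39a7, Mrpl43, Cnst, Atp5j and Smo, and the circuit genes without a peak that are named above, were named after their values had been seen.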

How the data were processed

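Chromatin immunoprecipitation for GABPα and input DNA from CD4 T cells were sequenced as 1 library each. Per the paper's methods, the authors trimmed 36-base single-end reads with Trimmomatic (quality cutoff 20, minimum length 30), aligned them to mm10 with Bowtie and called peaks with MACS2 against the input at a q-value cutoff of 0.01. Tool versions were not given in the sources used here. The deposited file holds peak positions only. Its score column is empty and it gives neither sequencing depth nor peak height, so neither was used here, and the input had no table of its own. Coverage below the calling threshold therefore cannot be told apart from absence of signal.

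Distances were measured from the peak edge to GENCODE M21 transcript starts on GRCm38.p6, the patch release of mm10. Peaks within 1000 bp counted as near a gene, and all coordinates are 1-based. Sequences and motifs were read from the RefSeq copy of that assembly with pysam 0.24.0 and samtools 1.23.1. Uniqueness is the share of 36-base words found once in the genome on either strand. The counting code was tested on simulated data. Genes were named by a fixed rule: all regulators, all genes starting within 1000 bp of their peaks, and all listed circuit genes with a peak. A few others are named and marked as chosen after their values were seen. Members and lists were chosen with earlier results of these data known. Alternatives covered the distance limit, the transcripts used, peak width and the motif.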

Additional observations from a re-analysis of the deposited data

How the results depend on the processing

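With other distance limits, transcript sets or peak widths the count of the 61 pathway genes stayed between 19 and 21 and the count over all coding genes between 3079 and 3989. The count of regulators with a peak was less steady. It was 1 of 8, Pprc1 without Yy1, with a limit of 500 bp, with peaks at or above the median width, and with peaks above the smallest width, the last chosen after seeing the data. The count was 2 of 8 in the other 4 alternatives, including RefSeq starts, which were also added after seeing the data. At or above the median width Pprc1 was kept by its 167 bp peak alone, the one that cannot be told apart from an Ldb1 peak. The same held with the gene's own annotated start only, 1 of those 4 alternatives. The motif decided the other count. CCGGAAG was in 0 of the 3 peaks at Pprc1 and Yy1, CGGAAG in 1 and GGAA in 3. Of the 3459 peaks near coding-gene starts 1979 held CCGGAAG (57.2%), 2651 held CGGAAG (76.6%) and 3416 held GGAA. GGAA alone therefore separates few peaks. One library without replicates, height or depth limits every count, since a peak missing from the list may lie below the threshold. No paired analysis was possible because each group had 1 library.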
